A study of Mus musculus with 27 samples.

Results

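The 9 genes described here encode proteins of the synaptic vesicle and of the SNARE machinery that fuses it with the plasma membrane: Syp, Sv2a, Sv2b, Syn1, Syn2, Syt1, Snap25, Vamp2 and Stx1a. They were taken by gene symbol from a table of 38168 features, which held all 9. Syn2 was listed in 2 entries and the entry with the higher mean was used. The table holds RNA-seq values of whole retina from wild type C57BL/6J mice, an inbred strain, at 7 ages. There were 3 libraries at embryonic day 14 (E14), 3 at E17, 4 at postnatal day 1 (P1), 3 at P6, 4 at P15, 4 at P28 and 6 at P60. No treatment or mutation was involved. Most libraries were made from pooled retinas of several animals, and at P60 some came from single mice, which the labels do not tell apart. Embryos and P1 pups were of mixed sex and later animals were males. Sex and age thus cannot be told apart where P1 or an earlier age is compared with P6 or a later one. Syp and Syn1 lie on the X chromosome. The labels give no litter, so p-values measure the spread between libraries of an age, except in the tests of ratios, which pooled ages. Levels are in cpm, the count of reads of a gene scaled to the same total in every library.

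A synaptic vesicle fuses when the SNARE protein on its membrane, synaptobrevin 2 (Vamp2), zips together with SNAP-25 (Snap25) and a syntaxin such as syntaxin 1A (Stx1a) on the plasma membrane. Synaptotagmin 1 (Syt1) senses calcium and triggers the fusion, the synapsins (Syn1, Syn2) hold vesicles in reserve clusters, and synaptophysin (Syp) and the SV2 glycoproteins (Sv2a, Sv2b) are abundant proteins of the vesicle membrane. In the retina, amacrine cells form conventional synapses with synapsins and syntaxin 1, whereas photoreceptors and bipolar cells form ribbon synapses, which are known to lack synapsins and to use syntaxin 3.

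The genes lie on 8 chromosomes in GRCm38 (GENCODE M21). Syp (Gene ID 20977) spans 7638471 to 7653256 of chromosome X on the plus strand and Syn1 (20964) spans 20860511 to 20921004 of the same chromosome on the minus strand. Syn2 (20965) occupies 115134902 to 115282006 of chromosome 6 on the plus strand, and Snap25 (20614) 136713453 to 136782428 of chromosome 2 on the plus strand. Vamp2 (22318) is the shortest, from 69088490 to 69092384 of chromosome 11 on the plus strand. Stx1a (20907) runs from 135023482 to 135051100 of chromosome 5 on the plus strand. Syt1 (20979) is the longest, from 108497650 to 109010982 of chromosome 10 on the minus strand. Sv2a (64051) covers 96181151 to 96195521 of chromosome 3 on the plus strand and Sv2b (64176) 75114894 to 75309262 of chromosome 7 on the minus strand.

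RefSeq windows around the start site (250 bases before to 50 after, GRCm38.p6) were at hand for 7 of the 9 genes. Snap25 and Vamp2 had none. Sv2b had 4 windows and Syn2 and Syt1 had 2 each. For every gene only the most upstream window was used. The 250 bases before the start site are shown for the member with the smallest rise (Syn1), the member that fell (Stx1a) and the member with the largest rise on the log2(cpm + 1) scale (Sv2b). Each is written 5′ to 3′ on the strand of its gene. Capitals mark exact matches, on either strand, to 6 searched motifs: both parts of the RE1 element bound by the neuronal repressor REST (TTCAGCACC and GGACAG), the cyclic AMP response element (TGACGTCA), the GC box (GGGCGG), the TATA box (TATAAA) and the core of the site of the photoreceptor factor CRX (TAATCC). A match on the opposite strand appears as its reverse complement.
Syn1, chrX:20920919-20921168, minus strand: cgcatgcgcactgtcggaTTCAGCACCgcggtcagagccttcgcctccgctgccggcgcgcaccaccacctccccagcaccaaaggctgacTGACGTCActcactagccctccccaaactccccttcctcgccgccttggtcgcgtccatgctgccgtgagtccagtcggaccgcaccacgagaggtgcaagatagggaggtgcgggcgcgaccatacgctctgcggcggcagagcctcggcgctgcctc
Stx1a, chr5:135023232-135023481, plus strand: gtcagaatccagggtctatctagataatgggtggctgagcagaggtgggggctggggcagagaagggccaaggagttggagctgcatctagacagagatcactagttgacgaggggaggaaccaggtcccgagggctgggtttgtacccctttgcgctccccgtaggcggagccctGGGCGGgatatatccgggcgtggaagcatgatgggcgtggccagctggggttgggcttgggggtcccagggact
Sv2b, chr7:75309263-75309512, minus strand: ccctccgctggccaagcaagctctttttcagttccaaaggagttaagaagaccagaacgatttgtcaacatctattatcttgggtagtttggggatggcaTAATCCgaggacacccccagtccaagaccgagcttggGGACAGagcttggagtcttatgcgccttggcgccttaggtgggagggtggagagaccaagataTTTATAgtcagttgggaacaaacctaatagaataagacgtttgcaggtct
In the Syn1 sequence the capitals mark TTCAGCACC, which begins 232 bases before the start site, and TGACGTCA, which begins 159 bases before it. In that of Stx1a they mark a GC box. The Sv2b sequence held the CRX core, the shorter RE1 part and, on the opposite strand, the TATA box. Over the full windows TTCAGCACC was found in 1 of the 7 members against 0.37% of all 27025 genes with a window, and TGACGTCA in 1 against 1.854%. GC boxes were found in 6 of the 7, against 35.922% of all genes. GGACAG occurred in 2 members (22.128% of all), TAATCC in 2 (7.153%) and TATAAA in 1 (14.157%). Such matches describe the letters of a window and show no binding.

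The read totals behind the cpm scaling, recovered from the values, were 7077781 to 11332323 per library, with a median of 7969873. These are not the numbers of reads sequenced. Summed levels of marker genes moved with age beside the results below. The sum of 5 markers of dividing progenitors went from 3665 to 3796 cpm at E14 to 7.21 to 15.7 at P60, and that of 6 rod markers from 20.7 to 27.1 to between 24856 and 29882. The 6 bipolar cell markers summed to 25.4 to 28.8 cpm at E14 and to 1273 to 1706 at P60. The 7 amacrine markers summed to 145 to 168 at E14, reached 859 to 973 at P1 and stood at 546 to 577 at P60. Chat was at 0 in all E14 libraries. Of the amacrine markers, limma called 3 higher and 3 lower from P1 to P6. In mature against embryonic retina 6 of them were higher and 1 lower. Markers of retinal ganglion cells (7 genes) summed to 1312 to 1366 at E14, 566 to 662 at P1, 892 to 1206 at P15 and 627 to 778 at P60. These 7 genes did not move together, as 2 were higher and 4 lower in mature than in embryonic retina by limma. Among neighboring tissues, markers of retinal pigment epithelium summed to 4.22 to 6.4 cpm at E14 and 40.0 to 64.5 at P15, and 4 of 5 were higher in mature than in embryonic retina by limma. Blood markers summed to 10.7 to 15.5 cpm at P1 and 38.9 to 49.9 at P6, and 4 of 4 rose at that step. The other sums were 22.3 to 49.5 cpm for oligodendrocytes, at most 4.54 for lens (2 of 5 genes in the table) and at most 6.46 for muscle (2 of 4). The oligodendrocyte sum was 45.1 to 49.5 cpm at E14 and 27.9 to 34.9 at P60. Of the 3 oligodendrocyte genes tested, 2 were lower in mature than in embryonic retina by limma. Cryaa of the lens list was at 0 in every library of 4 ages, and Mobp of the oligodendrocyte list in every library of 2. In whole retina, fewer cells of a type and less RNA per cell cannot be told apart, and the part of cell makeup or neighboring tissue in the results was not tested.

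**Figure D1:**
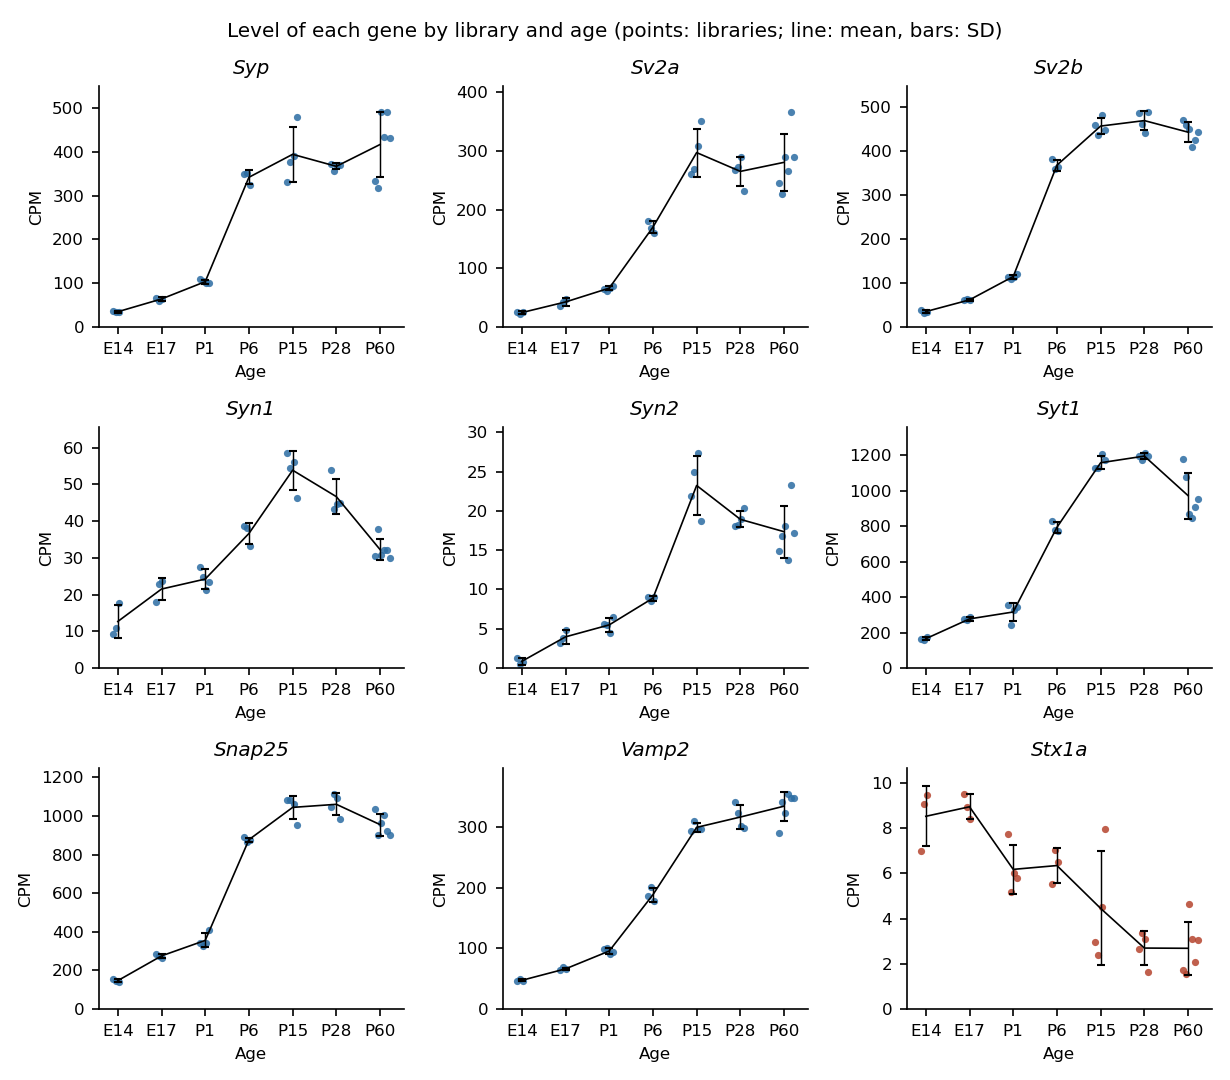
Level of each of the 9 genes (y axis, cpm, linear from 0) at each age (x axis), with 1 point per library, the line through the age means and bars of 1 SD (n = 3 to 6). For 8 genes the lowest mean is at E14, whereas Stx1a, drawn in red, is highest at E17 and lowest at P60.

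The main comparison asked how the level of each gene differed between mature retina (P15, P28 and P60) and embryonic retina (E14 and E17). Of the 9 genes, 8 rose and 1, Stx1a, fell. Over all 31760 features tested, 35.0% were called higher and 40.4% lower. The median log2 fold change of the 9 was 2.47, against -0.06 over all features. The test was limma on log2(cpm + 1) of all 27 libraries, in a two-sided form. P-values were adjusted over all features by the Benjamini-Hochberg method, and a gene was called at an adjusted p under 0.05. All 9 changes were also at least 1 on the log2 scale, a size that 14.9% of features reached upward and 16.1% downward. Each of the 9 varied over the 7 ages by limma's F test, as did 83.0% of all features.

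Among the vesicle membrane proteins, Syp measured 37.0, 33.3 and 34.6 cpm at E14, 67.2, 60.3 and 65.1 at E17, and 109, 105, 100.4 and 99.7 at P1. At P6 its level was 349.5, 352 and 324 cpm, at P15 331, 377, 390.4 and 479, and at P28 373, 357, 368 and 370.2. The 6 libraries of P60 spanned 318 to 491 cpm, with a median of 433. The 4 youngest ages did not overlap each other, and from P6 onward each age overlapped the next. Mature retina was higher than embryonic by 3.01 on the log2 scale (SE 0.07, limma adjusted p = 2.4e-26), and the mean at P60 was 11.9-fold that at E14. The SD was 62.2 cpm at P15, 6.88 at P28 and 75.1 at P60. At P15 the highest value was that of replicate 4, whose ganglion cell marker sum of 1206 cpm also stood above the 892 to 907 of the other 3. Its sums for Müller glia, rods and amacrine cells were the highest of P15 as well. Those for bipolar cells and cones were not, and that for horizontal cells was the lowest. At P60 replicates 1 and 2 were lowest for Syp (333 and 318 cpm against 433 or more). In the same pair of libraries the sums of Müller glia markers (859 and 860.3 cpm against 1032 to 1081) and of cone markers (488 and 491 against 543 to 620.0) were lowest too. So were the sums for bipolar cells, rods and amacrine cells, but not those for ganglion and horizontal cells. The part of these differences in the Syp values was not tested.

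Sv2a and Sv2b followed a like course. Their paralog Sv2c, which is not among the 9, had a mean of 51.0 cpm at E14, 50.7 at P6 and 61.1 at P60. Sv2a ranged over 22.5 to 25.9 cpm at E14, 36.5 to 48.6 at E17, 61.9 to 70.7 at P1 and 161 to 181 at P6. It then reached 261 to 350.1 cpm at P15. The P28 libraries held 232 to 290.0 and those of P60 227 to 366. Every age up to P15 lay clear of the age before it, and the 3 mature ages overlapped. Sv2b was at 31.5 to 39.0 cpm at E14, 60.4 to 63.7 at E17, 109.8 to 121 at P1 and 358 to 381 at P6. Its libraries of P15 held 436 to 480.1 cpm, those of P28 440.3 to 488 and those of P60 408 to 469. Sv2b had the largest rise of the 9 on the log2(cpm + 1) scale, 3.26 (SE 0.04, limma adjusted p = 2.3e-33), and Sv2a rose by 3.07 (SE 0.08, adjusted p = 3.9e-26). In plain cpm the order differed, with a P60 mean of 20.3-fold the E14 mean for Syn2 against 12.6-fold for Sv2b.

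Both synapsin genes ranked low per length at every age. Syn1 measured 9.30, 11.0 and 17.8 cpm at E14, 18.1, 22.8 and 23.7 at E17, and 27.5, 24.8, 21.3 and 23.4 at P1. At P6 it was at 38.6, 38.2 and 33.2 cpm, at P15 at 58.6, 54.4, 56.2 and 46.3, and at P28 at 53.8, 43.4, 44.6 and 44.9. At P60 the lowest, median and highest of the 6 libraries were 29.9, 31.5 and 37.9 cpm. The level peaked at P15, and every P60 library lay below every P28 library and within or below the range of P6. Between mature and embryonic retina Syn1 rose by 1.36 (SE 0.09, limma adjusted p = 1.5e-14), the smallest rise of the 8.

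Syn2 was, per length, the lowest of the rising genes in embryonic retina. Its E14 libraries held 1.3, 0.527 and 0.737 cpm, from 5 to 13 reads each, and its E17 libraries 3.17, 3.88 and 4.87. Levels were 5.64, 5.42, 4.41 and 6.51 cpm at P1, 9.04, 8.54 and 9.10 at P6, and 21.9, 24.9, 27.4 and 18.7 at P15. They were 18.1, 18.3, 18.9 and 20.4 cpm at P28, and 13.8, 17 and 23.4 were the lowest, median and highest at P60. The P15 libraries all stood above those of P6 by more than the whole range of either age, and the mature ages overlapped. Mature retina was higher by 2.77 on the log2(cpm + 1) scale (SE 0.11, limma adjusted p = 1.3e-20), which understates the change of a gene this low. In plain cpm the P60 mean was 20.3-fold the E14 mean. The second Syn2 entry, which carries the same Gene ID, was lower throughout, with a mean of 0.139 cpm at E14 and 2.42 at P60.

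Per length of exon, Snap25 and Syt1 had the highest levels of the 9 at every age. Syt1, the calcium sensor, measured 165, 158 and 174 cpm at E14, 274, 269.8 and 288 at E17, and 353, 241, 325 and 346 at P1. At P6 it was at 827, 779 and 773 cpm, at P15 at 1125, 1127, 1204 and 1171, and at P28 at 1197, 1172, 1213 and 1196. Its P60 libraries ran from 845 to 1178 cpm with a median of 932. The low P1 library, replicate 2, put P1 in overlap with E17, and at P60 replicates 1 and 2 were the highest (1178 and 1075 cpm), the first of them reaching the P28 range. Syt1 rose by 2.36 from embryonic to mature retina (SE 0.06, limma adjusted p = 1.8e-25).

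The SNARE genes differed among themselves. Snap25 measured 154, 148 and 139.7 cpm at E14, 284, 277 and 265 at E17, and 345, 327, 343 and 408 at P1. At P6 it was at 889, 867 and 876 cpm, and at P15 at 1081, 1083, 1059 and 954. It stayed near that level, at 986 to 1114 cpm at P28 and 899.6 to 1035 at P60. Ages up to P15 did not overlap, and the rise from embryonic to mature retina was 2.33 (SE 0.04, limma adjusted p = 2.3e-29). Vamp2 went from 45.9 to 49.1 cpm at E14 through 64.8 to 68.7 at E17, 90.3 to 100.2 at P1 and 178 to 201 at P6. It reached 293 to 309.9 cpm at P15, 299 to 341 in the P28 libraries and 290.3 to 354 in the P60 libraries. Its rise was 2.47 (SE 0.05, limma adjusted p = 1.1e-29), with its highest mean at P60.

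Stx1a ran the other way. Its libraries held 7.0, 9.07 and 9.47 cpm at E14, 9.51, 8.91 and 8.39 at E17, and 7.73, 5.17, 5.99 and 5.80 at P1. At P6 the level was 5.51, 7.03 and 6.48 cpm, at P15 2.94, 2.37, 4.50 and 7.97, and at P28 2.66, 3.37, 3.11 and 1.63. The lowest, median and highest at P60 were 1.55, 2.56 and 4.64 cpm. P15 replicate 4 (7.97 cpm) overlapped the embryonic range, and the other 13 mature libraries lay below all 6 embryonic ones. Stx1a fell by 1.27 on the log2(cpm + 1) scale (SE 0.17, limma adjusted p = 6.8e-08), which understates the change of a gene this low. In plain cpm its E14 mean was 3.17-fold its P60 mean. These values rest on 11 to 101 reads per library.

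**Figure D2:**
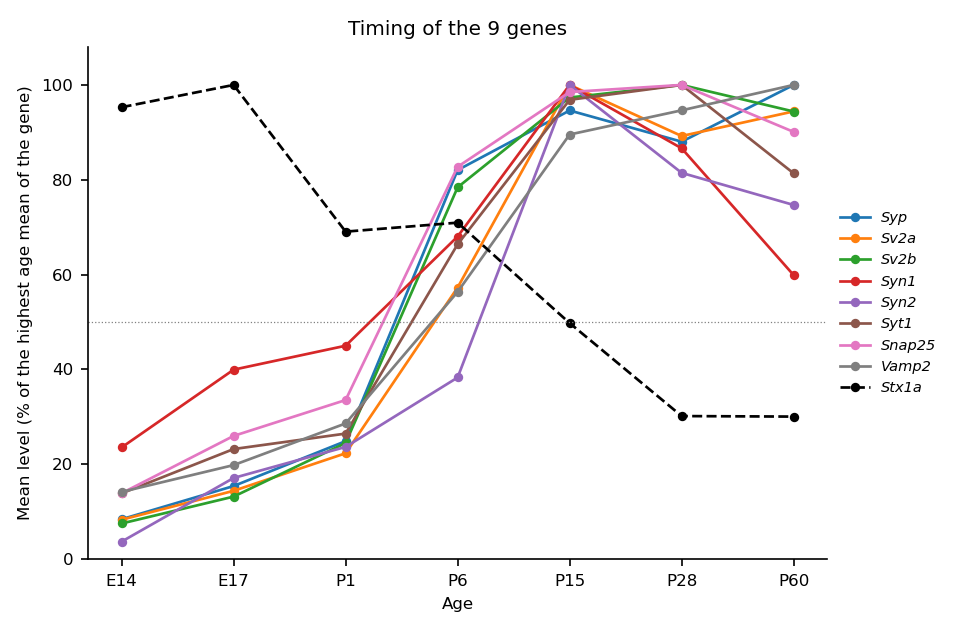
Mean level of each gene at each age as a percentage of its own highest age mean (y axis) against age (x axis), with a dotted line at 50%. Between P1 and P6, 7 of the rising genes cross the line, Syn2 crosses it between P6 and P15, and Stx1a (dashed) goes from 100% at E17 to about 30% at P28 and P60.

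The rise was spread over 4 of the 6 steps between neighboring ages, each step sharing its libraries with the next. From E14 to E17, 8 of the 9 genes rose (7.56% of all features were higher and 3.02% lower), by 0.48 (Vamp2) to 1.43 (Syn2) on the log2 scale. Stx1a differed by 0.07 (SE 0.28, limma adjusted p = 0.95). From E17 to P1, 5 rose and 0 fell (5.77% and 3.43% of all features), led by Sv2b at 0.88, with Syp, Sv2a, Vamp2 and Snap25. Those that missed the threshold were Syn2 (0.39, adjusted p = 0.19), Syt1 (0.17, adjusted p = 0.34), Syn1 (0.17, adjusted p = 0.61) and Stx1a (-0.48, adjusted p = 0.33). Without P1 replicate 2, Syt1 rose by 0.30 at this step (limma adjusted p = 0.02).

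Between P1 and P6, 8 of the 9 rose, against 18.0% of all features higher and 20.4% lower. Syp (1.71), Sv2b (1.67), Sv2a (1.35), Syt1 (1.34) and Snap25 (1.31) each more than doubled, and Vamp2 (0.97), Syn2 (0.62) and Syn1 (0.58) rose less. Stx1a differed by 0.04 (SE 0.27, limma adjusted p = 0.93). The median over the 9 was 1.31, against -0.03 over all features. From P6 to P15, 7 rose and 0 fell, against 14.4% and 19.0% of all features, and Syn2 was the one with the largest rise (1.28, SE 0.17, adjusted p = 5.6e-07). Syp was not called (0.19, adjusted p = 0.21). Stx1a was not called either (-0.53, SE 0.27, adjusted p = 0.13), but without P15 replicate 4 it fell by 0.81 (limma adjusted p = 0.014).

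The genes had thus reached different shares of their own highest mean by P6. Snap25 stood at 82.7%, Syp at 82.0%, Sv2b at 78.4%, Syn1 at 68.0%, Syt1 at 66.4%, Sv2a at 57.3%, Vamp2 at 56.4% and Syn2 at 38.3%. These shares are a description, and the order among close neighbors was not tested.

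From P15 to P28, 0 of the 9 genes were called by limma and 0 had an unadjusted p under 0.05, against 1.14% of all features higher and 1.58% lower. EdgeR and DESeq2 on the recovered reads called 0 as well. The differences ran from -0.48 (Stx1a, SE 0.25, adjusted p = 0.39) to 0.08 (Vamp2, SE 0.07, adjusted p = 0.68). From P28 to P60, 0 rose and 2 fell, against 4.80% of all features higher and 8.11% lower. Syn1 fell by 0.52 (SE 0.12, limma adjusted p = 0.0095) and Syt1 by 0.31 (SE 0.08, adjusted p = 0.017). Both calls were lost when only these 2 ages were fitted (limma adjusted p = 0.11 for Syn1 and 0.19 for Syt1). DESeq2 did not call Syt1 (-0.23, adjusted p = 0.052). For Syt1, P60 replicates 1 and 2 held 1178 and 1075 cpm and replicates 3 to 6 held 845 to 955. The P28 libraries held 1172 to 1213 cpm. Of the features called at this step, 37.2% were higher in the CPM fit, but 51.7% after median-of-ratios scaling, 60.8% in edgeR and 61.3% in DESeq2, so the balance of directions over all features depended on the scaling. At the step from E14 to E17 the same share was 71.4%, and 60.9% in DESeq2.

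Ratios within a library do not depend on its scaling, and 4 of them were compared by two-sided exact permutation tests, with Benjamini-Hochberg adjustment over 8 tests. Libraries were pooled over the ages of a group and treated as exchangeable, so the p-values also take in differences between those ages. The mean ratio of Syn2 to Syn1 was 0.0764 at E14, 0.184 at E17, 0.227 at P1, 0.244 at P6, 0.431 at P15, 0.409 at P28 and 0.541 at P60. On the log2 scale the 14 mature libraries exceeded the 6 embryonic ones by 2.08 (exact permutation p = 2.6e-05, the smallest this design can give, adjusted p = 6.9e-05), and by 1.45 with 1 cpm added to each gene (adjusted p = 6.9e-05). They exceeded the 7 libraries of P1 and P6 by 0.99 (exact permutation p = 8.6e-06, again the smallest possible, adjusted p = 6.9e-05). The ratio of Stx1a to Snap25 moved farthest, from a mean of 0.0582 at E14 to 0.00281 at P60. It was lower in mature than in embryonic libraries by 3.92 (difference -3.92, exact permutation adjusted p = 6.9e-05) and lower than at P1 and P6 by 2.05 (difference -2.05, adjusted p = 6.9e-05).

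The other ratios stayed within a narrower band. Sv2b over Sv2a averaged 1.42 at E14, 2.16 at P6 and 1.62 at P60. Mature libraries differed from embryonic ones by 0.18 (exact permutation adjusted p = 0.10) and from those of P1 and P6 by -0.23 (adjusted p = 0.051), and neither difference passed the threshold. Leaving out any of 7 single libraries brought the second past it, at -0.24 to -0.25 (adjusted p between 0.022 and 0.048), and leaving out P60 replicate 5 did so for the first (0.22, adjusted p = 0.038). Vamp2 over Snap25 averaged 0.322 at E14, 0.215 at P6 and 0.352 at P60. It was higher in mature libraries than at P1 and P6 by 0.37 (exact permutation adjusted p = 0.0013), whereas against embryonic libraries the difference of 0.18 was not called (adjusted p = 0.092). Without E14 replicate 2 or replicate 3 that difference was 0.23 or 0.24 and passed (adjusted p = 0.044 and 0.042).

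**Figure D3:**
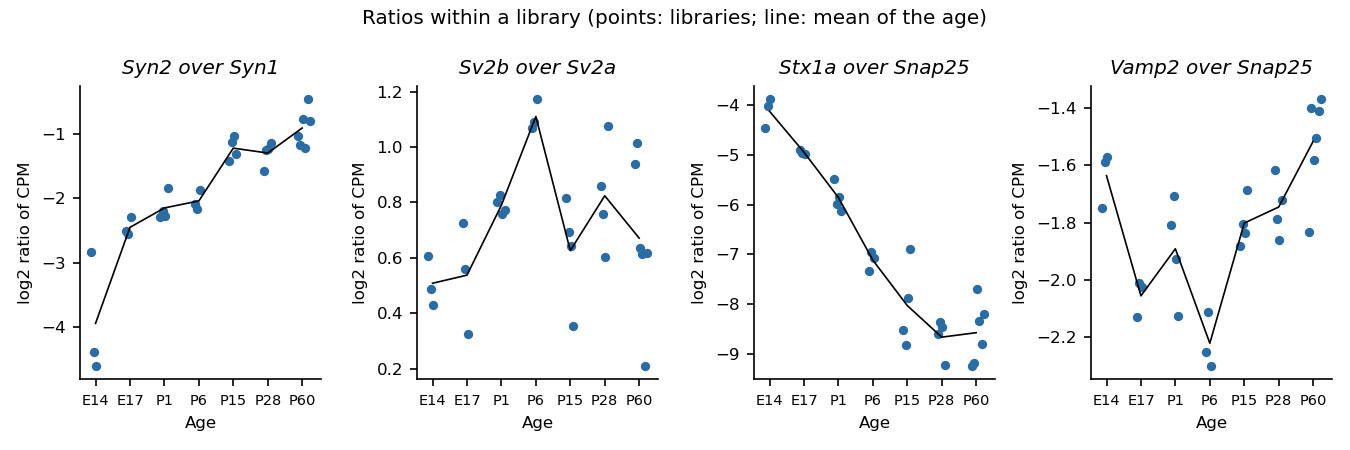
Log2 of the ratio of 2 genes within a library (y axis, a separate scale in each panel) against age (x axis), with 1 point per library and the line through the age means. Stx1a over Snap25 goes down from a mean of -4.12 at E14 to -8.58 at P60, Syn2 over Syn1 goes up from -3.94 to -0.91, and the other ratios stay within about 1 log2 unit.

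Levels of different genes can be set side by side only per length of their exons (GENCODE M21). At E14 the order in cpm per kb was Snap25 (65.9 ± 3.27, SD, n = 3), Syt1 (34.3 ± 1.62), Vamp2 (16.7 ± 0.562), Syp (13.5 ± 0.720), Sv2b (5.94 ± 0.633), Sv2a (5.69 ± 0.438), Stx1a (3.94 ± 0.613), Syn1 (3.85 ± 1.36) and Syn2 (0.170 ± 0.0795). Sv2b and Sv2a lay within each other's spread, as did Stx1a and Syn1. At P60 the order was Snap25 (428 ± 25.6, SD, n = 6), Syt1 (201 ± 26.9), Syp (161 ± 29.0), Vamp2 (118 ± 8.53), Sv2b (74.7 ± 3.81), Sv2a (64.7 ± 11.2), Syn1 (9.78 ± 0.880), Syn2 (3.45 ± 0.661) and Stx1a (1.24 ± 0.539). The ranges of Syt1 and Syp overlapped, as did those of Syp and Vamp2 and of Sv2b and Sv2a. Stx1a thus stood seventh at E14 and last at P60. Of the genes that rank last in both lists, the synapsins and Stx1a, none came within the range of the other 6 at P60.

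Some genes share exon bases with a member. The annotated antisense gene Gm14703 overlaps exons of Syp by 875 bp, and its mean went from 15.7 cpm at E14 to 228 at P60, a course that followed Syp with a Pearson r of 0.998 over the 27 libraries. Whether counting used the strand is not given in the sources used here, so reads of the pair cannot be told apart over that stretch. Smaller overlaps with exons on the opposite strand were 90 bp of Timp4 with Syn2 (mean 0.483 cpm at E14 and 5.79 at P60), 47 bp of 1500012K07Rik with Sv2b (0.207 and 3.32) and 9 bp of Araf with Syn1 (57.6 and 167). Timp1 lies within Syn1 without sharing exon bases and its mean was under 1 cpm at every age. Gm5136 lies within Syt1, also with no shared exon, at means of 4.99 to 12.5 cpm.

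Across the 27 libraries, pairs of the 8 rising genes had a Pearson r of 0.851 (Vamp2 and Syn1) to 0.993 (Sv2b and Snap25) on the log2(cpm + 1) scale, and Stx1a with the other 8 at -0.594 to -0.799. Among 10992 genes with a Gene ID and a mean of at least 10 cpm, the closest to each member were found by the same measure. Sv2b was followed most closely by Kcnv2, a potassium channel subunit of photoreceptors (0.998), then Lrit1 and Pdc. Besides Gm14703, Syp had Rp1l1 and Mef2d (both 0.996). Snap25 had Gjd2, which encodes a gap junction protein (0.995), Lrit1 and A530058N18Rik, and Vamp2 had Agpat3 (0.997), Ppargc1a and Prkca. Sv2a was closest to Syngr1, which encodes another vesicle membrane protein (0.994), and Prkca, and Syt1 to Napb, a cofactor of SNARE disassembly (0.995), and Rnf152. Syn2 had Synpr, which encodes the vesicle protein synaptoporin (0.983), Scn2a1 and Vsnl1. Syn1 had no gene above 0.954 (Cdr1, then Klf9 and Cited2), and Stx1a none above 0.916 (the tubulin gene Tubb2a, then Nsg1 and Pdia6). These r describe 27 points that share their ages, libraries and scaling.

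**Figure D4:**
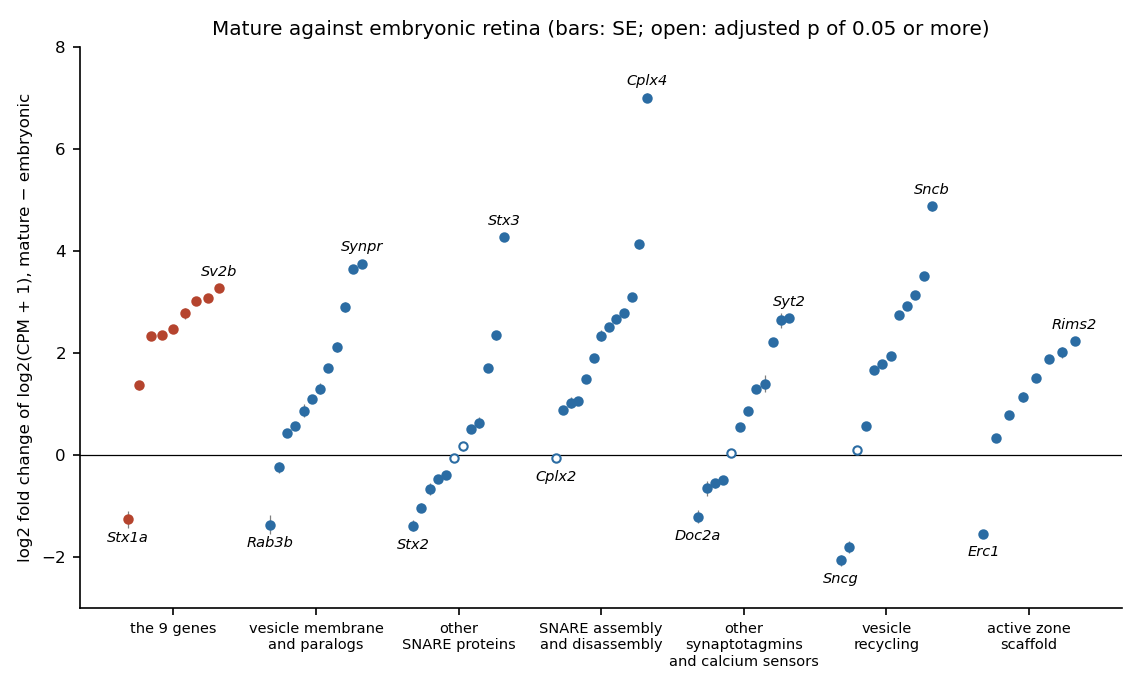
Log2 fold change of log2(cpm + 1) between mature and embryonic retina (y axis) for the 9 genes (red) and for 69 other genes of vesicle release in 6 lists (blue), ordered by value within each list, with bars of 1 SE and open circles at an adjusted p of 0.05 or more. In each list but the one for SNARE assembly and disassembly some genes lie below 0 with a filled circle, down to Sncg at -2.07, and Cplx4 at 7.0 is the highest.

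Further genes of vesicle release were taken from 6 lists with 69 members, all of them tested. Between embryonic and mature retina 50 rose, 14 fell and 5 were not called, and their median log2 fold change was 1.29. Over all features, 35.0% were higher and 40.4% lower, with a median of -0.06. By step, the numbers that rose and fell were 33 and 2 from E14 to E17, 20 and 8 to P1, 45 and 7 to P6, 36 and 12 to P15, 1 and 3 to P28, and 6 and 7 to P60. The step from P15 to P28 also had the lowest shares of calls over all features (1.14% and 1.58%).

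SNARE assembly and disassembly was the list without a fall: 12 of 13 genes rose and Cplx2, an activator and clamp of fusion at conventional synapses, was not called (-0.07, SE 0.05, limma adjusted p = 0.21). Cplx2 went from 141 to 156 cpm at E14 up to 509 to 562 at P6 and back to 137 to 165 at P60. Cplx4, a complexin of ribbon synapses, had the largest rise of all 69 (7.0, SE 0.09, adjusted p = 4.5e-34), from 0.10 to 0.316 cpm at E14 to 167 to 205 at P60. In the median this list stood at 2.34.

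Of the 12 other SNARE genes, 5 rose, 5 fell and 2 were not called (median 0.05), close to the shares over all features (35.0% higher and 40.4% lower, median -0.06). Stx3, the syntaxin of ribbon synapses, rose by 4.27 (SE 0.04, limma adjusted p = 1.6e-36), from 22.7 to 24.5 cpm at E14 to 456 to 520 at P6 and 553 to 669 at P60. Stx2 fell by 1.39 (SE 0.11, adjusted p = 3.5e-13), from 23.5 to 25.1 cpm at E14 to 4.26 to 8.06 at P60.

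In the list of vesicle membrane proteins and paralogs, 10 of 12 rose and 2 fell (median 1.19). Synpr had the largest rise (3.75, SE 0.08, limma adjusted p = 1.3e-28), from 2.32 to 3.69 cpm at E14 to 78.7 to 104 at P60, and Rab3b, a small GTPase of secretory vesicles, the largest fall (-1.37, SE 0.18, adjusted p = 5.3e-08), from 3.20 to 4.32 to between 0.376 and 3.31. Of the other synaptotagmins and calcium sensors, 7 rose, 4 fell and 1 was not called (median 0.71), between Syt2 (2.68, SE 0.08, adjusted p = 3.6e-24) and Doc2a (-1.21, SE 0.13, adjusted p = 9.4e-10). Vesicle recycling had 9 that rose, 2 that fell and 1 not called (median 1.86). Its ends were Sncb (4.87, SE 0.09, adjusted p = 4.6e-30) and Sncg (-2.07, SE 0.10, adjusted p = 4.9e-18), which encode β- and γ-synuclein. The active zone scaffold had 7 that rose and 1 that fell (median 1.31), from Rims2 (2.23, SE 0.05, adjusted p = 1e-27) to Erc1 (-1.55, SE 0.05, adjusted p = 7.1e-23).

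**Figure D5:**
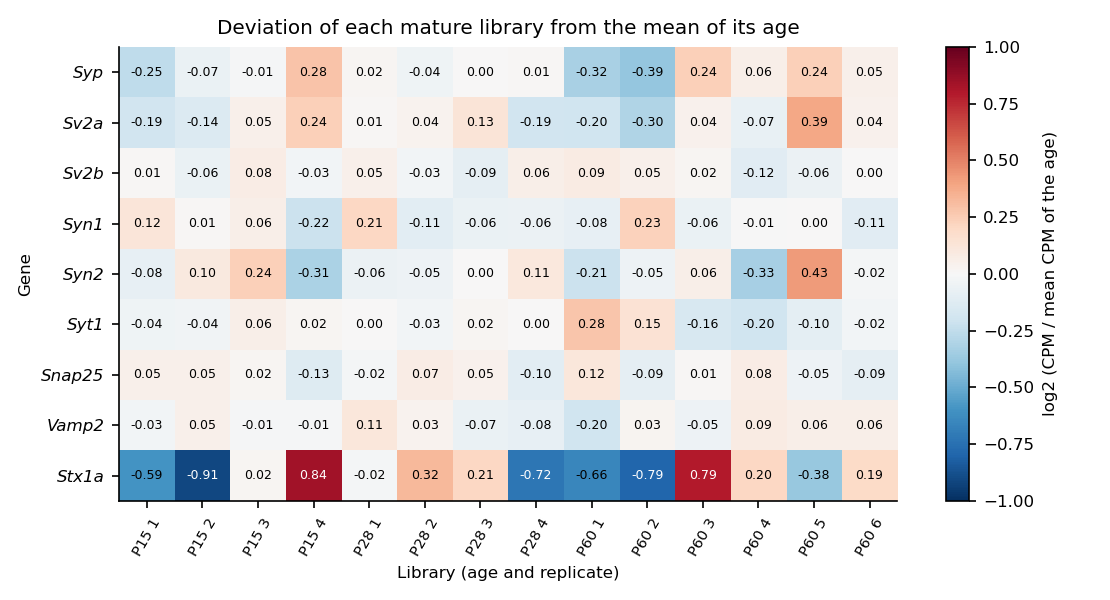
Each cell gives, for 1 gene (rows) in 1 mature library (columns, age and replicate), the log2 of its cpm over the mean of its age, with blue below and red above the mean. Stx1a varies most, from -0.91 in P15 replicate 2 to 0.84 in P15 replicate 4, and Sv2b stays within 0.12 of its age mean.

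Within the mature ages, libraries of one age differed most for Stx1a, whose values lay from 0.91 below to 0.84 above the log2 of their age mean. P60 replicate 5 was the highest library for Syn2 and Sv2a (0.43 and 0.39 above the age mean), and P60 replicates 1 and 2 were the lowest for Syp, Sv2a and Stx1a. P15 replicate 4 was the highest of its age for Syp, Sv2a and Stx1a and the lowest for Syn1, Syn2 and Snap25. Without that library all 9 genes were still called between mature and embryonic retina.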

How the data were processed

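Total RNA of retinas, pooled except for some P60 samples, was made into libraries with the SMARTer total RNA kit and sequenced by the authors. Reads were aligned by them with STAR to mm10 (GRCm38) per the submitters' processing notes. They deposited 1 table of CPM values per feature and library. The annotation and any use of strand in counting are not given in the sources used here. Of 38168 features, 14905 have no Gene ID and 926 symbols recur. Where a symbol recurred the entry with the highest mean CPM was used.

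Values were whole multiples of 1 read's worth (100.0% within 0.02 of a whole number), which gave back the reads. Within an age, no 2 libraries agreed to within counting noise (lowest chi-square per degree of freedom 1.69). At P60 the value was 3.13 for replicates 1 and 2, but 7.63 to 19.3 between either of them and replicates 3 to 6. Pairs among replicates 3 to 6 gave 4.37 to 8.54. The highest value at any other age was 7.49 (P15 replicates 1 and 4), so the P60 libraries were less alike than those of other ages. Features that reached 1 CPM in 3 or more libraries were kept (31760). On log2(CPM + 1), limma 3.58.1 with a mean-variance trend (R 4.3.3) was fitted to 27 libraries with age as factor. Tests were two-sided, and p-values were adjusted over all features kept (Benjamini-Hochberg, threshold 0.05). Mature retina was the mean of the P15, P28 and P60 means and embryonic retina that of E14 and E17. Log2 ratios were compared by exact permutation of libraries, pooled over the ages of each group. The test was tried on simulated reads with known changes. Loci and exon lengths came from GENCODE M21 and promoters from RefSeq, matched by symbol.

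The genes, lists and markers were chosen with earlier results of these data known. Genes named were the 9, the highest and lowest of each list, overlapping genes and the 3 best correlated per member, of which some are not reported here. Alternatives were a pseudocount of 0.1, no filter, a filter at 10 CPM on average, scaling by median of ratios, a block for the replicate number, edgeR 4.0.16 and DESeq2 1.42.0 on the recovered reads, sums over a symbol's entries, a fit of the compared ages only, a minimum log2 fold change of 1, medians of ratios, ratios with 1 CPM added or per kb and leaving out each library. EdgeR without E14 replicate 1 was added after the data were seen. The rest was done in Python 3.11.15 (pandas 2.3.3, scipy 1.17.1, numpy 2.4.6, matplotlib 3.10.9).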

Additional observations from a re-analysis of the deposited data

Results flagged for a closer look

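Within ages of 4 to 6 libraries, 36 groups of values (9 genes at 4 ages) were searched for a library that stood apart by Dixon's test at the 95% level, at which chance marks about 1 group in 20. It marked 2 groups, both of Syn1. At P28, replicate 1 held 53.8 CPM and the nearest other library 44.9. At P60, replicate 2 held 37.9 CPM and the nearest other library 32.3. The fall of Syn1 from P28 to P60 was called without either library in turn.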

How the results depend on the processing

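All 9 calls between mature and embryonic retina held under the alternatives, except that Stx1a was not tested at a mean CPM of at least 10. A minimum log2 fold change of 1 left 1 gene called from E14 to E17, 0 to P1, 5 to P6, 1 to P15 and 0 from P28 to P60. The last step was the least stable: 0 genes were called with only its ages fitted and 1 by DESeq2. Without a single library its count was 2 to 3, since Snap25 fell by 0.17 without P60 replicate 1 (adjusted p = 0.029, limma) and Syp rose by 0.24 without P60 replicate 2 (adjusted p = 0.049). The count was 5 to 6 from E17 to P1 and 7 to 8 from P6 to P15. The Syn2 to Syn1 difference of mature from embryonic retina was 1.54 as medians and 1.45 with a pseudocount of 1. Leaving out single libraries gave 1.80 to 2.26 for it. The same range was 0.13 to 0.24 for Vamp2 over Snap25 and 0.14 to 0.22 for Sv2b over Sv2a, and -0.25 to -0.18 for Sv2b over Sv2a against P1 and P6. Outside the minimum fold change, 1154 of 1163 values of single genes kept their side of the threshold, and no called value changed sign. Uncalled values near 0 did for Stx1a, Sv2a, Syp and Snap25 at single steps. The causes of the changes were not tested. Depth limits Stx1a and embryonic Syn2 most.

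Replicate numbers did not pair the libraries: deviations of same-numbered libraries correlated at a median r of -0.004 to 0.012. With the replicate number as a block the counts were 9 between mature and embryonic retina and over all ages, 8, 5, 8, 7 and 0 at the first 5 steps, and 0 from P28 to P60 (Syn1 -0.49, adjusted p = 0.051, and Syt1 -0.28, adjusted p = 0.072, limma).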
